A study of Mus musculus with 23 samples.

Results

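The genes described here encode proteins with a part in the fusion of sperm and egg, or relatives of such proteins: Izumo1, Izumo2, Izumo3, Izumo4, Spaca6, Tmem95, Dcst1 and Dcst2. They were chosen by name, 8 of the 27466 genes in the deposited count table, and all 8 had a row there and passed the filter on low counts. Expression was measured by RNA sequencing of whole testes of CD-1 mice and of testis explants kept in organotypic culture, germ and somatic cells together. The question put to these genes was whether their transcripts appear, and reach the level of the age-matched testis, when the first wave of spermatogenesis runs in vitro.

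IZUMO1 is an immunoglobulin superfamily protein of the sperm head that becomes exposed after the acrosome reaction and binds JUNO, the product of Izumo1r, on the egg. SPACA6, TMEM95, DCST1 and DCST2 are further sperm membrane proteins without which mouse sperm bind eggs but fail to fuse with them. In the testis, genes of this kind are known to be transcribed mainly in haploid germ cells, which build the acrosome, and the proteins are used only after the sperm has left the male. IZUMO2, IZUMO3 and IZUMO4 share the Izumo domain with IZUMO1, and IZUMO3 is known for a role in acrosome formation.

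In vivo testes were taken fresh at ages of 6.5, 10.5, 22.5 or 36.5 days postpartum (dpp), and at 6.5 dpp also thawed after controlled slow freezing (CSF). The explants all came from 6.5 dpp testes and were grown in α-MEM with KnockOut serum replacement, gentamicin and retinol, the last given every 8 days, for 4, 16 or 30 days (D4, D16, D30), which brings them to the ages of the 3 later in vivo groups. D30 was reached from fresh or from CSF tissue. All animals were wild type, with no transgene or deletion in any group. Each culture library pooled several explants after the necrotic centre had been cut away, so it stands for the outer part of the explants. Frozen and fresh tissue of one age formed 1 group in the tests, so that 6.5 dpp had 4 libraries (1 fresh, 3 CSF) and D30 had 4 (3 fresh, 1 CSF). The groups of 10.5 dpp, 22.5 dpp and D4 had 3 libraries each, and those of 36.5 dpp and D16 had 2.

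Library totals ran from 28351546 to 69029328 counts. Replicates 2 and 3 of fresh 6.5 dpp tissue had identical counts in all genes and entered as 1 library. The library labelled 6.5 dpp fresh replicate 1 was kept out of all groups, because its summed round spermatid markers stood at 179 CPM (read counts scaled to the library total) against 6.49 to 12.7 CPM in the other libraries of its age. Its Leydig cell markers summed to 82.2 CPM (515 to 786 CPM in the others) and its macrophage markers to 141 CPM (29.8 to 90.0 CPM), with the marker genes named below. Somatic testis markers were present in all groups, with summed Sertoli cell markers (Sox9, Amh, Cldn11, Rhox8) between 78.8 and 1399 CPM in the 21 other libraries. Among the later groups, 22.5 dpp replicate 2 and D16 replicate 2 stood low for spermatid transcripts, and results that rest on them are given with and without them below. Whole tissue was sequenced, so fewer cells of a type and less RNA per cell cannot be told apart. Nothing in the labels says whether libraries of one group came from separate animals, and p-values then measure the spread between these libraries.

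The genes lie apart in the genome except for one pair. Izumo1 (chr7:45621811-45627242, plus strand, build GRCm38.p6) and Izumo2 (chr7:44708698-44719848, plus) are on chromosome 7. Izumo3 is at chr4:92144318-92147225 on the minus strand, Izumo4 at chr10:80702015-80705382 on the plus strand, Spaca6 at chr17:17826085-17843010 on the plus strand and Tmem95 at chr11:69876054-69878171 on the minus strand. Dcst1 (chr3:89350219-89365253, minus) and Dcst2 (chr3:89350417-89377643, plus) are neighbours whose RefSeq spans overlap, although their GENCODE M21 exons share 0 bases. Some of these loci hold other annotated genes as well. GENCODE transcripts of Izumo1 share 654 exon bases with Rasip1, which follows it on the same strand and was counted at 2.08 to 13.8 CPM. Exons of Dcst1 share 1268 bases with the pseudogene Gm10702 on the other strand, and the introns and exons of Spaca6 hold the hairpins of Mir99b, Mirlet7e and Mir125a. What part such overlaps have in the counts was not tested.

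Promoter windows of 300 bases (250 before to 50 after a RefSeq start, GRCm38.p6) were found for 7 of the 8 genes, Izumo4 being the one without. They were searched on both strands for 6 short motifs. Izumo1 was the only member whose window held the full cAMP response element TGACGTCA, which starts 96 bases before the transcription start and is found in 1.79% of the 32851 promoter windows of the genome. The shorter core TGACG, found in 20.8% of windows, occurs in Izumo1 only inside that element and in Tmem95 at 208 bases before the start. The RFX core GTTGCC, present in 12.5% of windows, occurs in Spaca6. The MYB motif TAACNG, present in 23.3% of windows, occurs in Izumo3. The SOX motif ATTGTT, present in 10.7% of windows, occurs in the window of Tmem95. None of the 7 windows held the letters TATAAA of the TATA box, which 13.6% of all windows hold. The windows of Izumo2, Dcst1 and Dcst2 matched none of the 6 motifs. Such matches describe the letters of the windows and say nothing of binding. The windows of Izumo1, Dcst2 and Spaca6 are printed 5′ to 3′ because they show, in turn, the one full element, an annotated start region shared by the Dcst pair and the member with the highest level before meiosis. Capitals mark the response element in Izumo1 (chr7:45621561-45621860, plus strand), the 65 bases between the diverging window starts of Dcst1 and Dcst2 in the Dcst2 window (chr3:89365069-89365368, plus strand), and the Mir125a hairpin of 68 bases in Spaca6 (chr17:17830725-17831024, plus strand). The Dcst1 window, read on the minus strand, shares 165 bases with that of Dcst2. The windows of Spaca6 and Dcst2 are built on starts that lie 4890 and 14902 bases inside the RefSeq spans given above, so other annotated starts precede them. In GENCODE the starts of Dcst1 and Dcst2 are 3278 bases apart. Which starts were used in these tissues was not tested.
Izumo1: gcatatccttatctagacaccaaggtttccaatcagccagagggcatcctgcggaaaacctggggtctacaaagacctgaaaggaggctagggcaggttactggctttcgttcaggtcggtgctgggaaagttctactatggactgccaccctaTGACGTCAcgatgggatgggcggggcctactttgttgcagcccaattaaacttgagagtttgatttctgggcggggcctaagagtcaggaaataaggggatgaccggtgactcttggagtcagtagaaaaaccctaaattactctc
Dcst2: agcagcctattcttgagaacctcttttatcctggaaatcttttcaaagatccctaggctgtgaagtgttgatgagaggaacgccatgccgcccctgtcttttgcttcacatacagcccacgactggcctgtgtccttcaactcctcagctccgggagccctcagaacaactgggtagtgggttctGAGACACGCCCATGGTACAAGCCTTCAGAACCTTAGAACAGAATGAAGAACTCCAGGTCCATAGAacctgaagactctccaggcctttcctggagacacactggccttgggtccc
Spaca6: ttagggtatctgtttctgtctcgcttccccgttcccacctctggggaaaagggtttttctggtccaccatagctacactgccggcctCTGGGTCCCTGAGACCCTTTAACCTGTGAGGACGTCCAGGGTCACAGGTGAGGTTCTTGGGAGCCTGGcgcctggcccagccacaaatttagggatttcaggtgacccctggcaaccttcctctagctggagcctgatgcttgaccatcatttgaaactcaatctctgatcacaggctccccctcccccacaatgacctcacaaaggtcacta

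Before haploid cells are formed, most of these transcripts were scarce and Spaca6 was not. Izumo2 had 0 or 1 count in each library at 6.5 and 10.5 dpp, and Izumo3 had 0 counts in all 3 libraries of 10.5 dpp, which allows a level of up to 0.0834 CPM in the shallowest of them (3 counts, counting error only). These genes were thus at the floor of detection. Tmem95 lay between 0.209 and 0.374 CPM, Dcst1 between 0.219 and 0.806 CPM and Dcst2 between 0.176 and 0.909 CPM over the 7 libraries of those ages. Izumo1 was read at 1.54 to 3.60 CPM and Izumo4 at 3.13 to 6.62 CPM in the same libraries. Spaca6 stood well above them, with 17.1, 21.6, 19.3 and 6.74 CPM at 6.5 dpp (the fresh library first, then CSF replicates 1 to 3) and 18.7, 16.3 and 19.7 CPM at 10.5 dpp. It made up 42.2% to 73.9% of the summed CPM of the 8 genes at 6.5 dpp. No member differed between 10.5 and 6.5 dpp by edgeR's quasi-likelihood test at an adjusted p under 0.05, against 1.14% of the 19255 genes tested in either direction. None had an unadjusted p under 0.05, and DESeq2 called 0 as well.

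**Figure D1:**
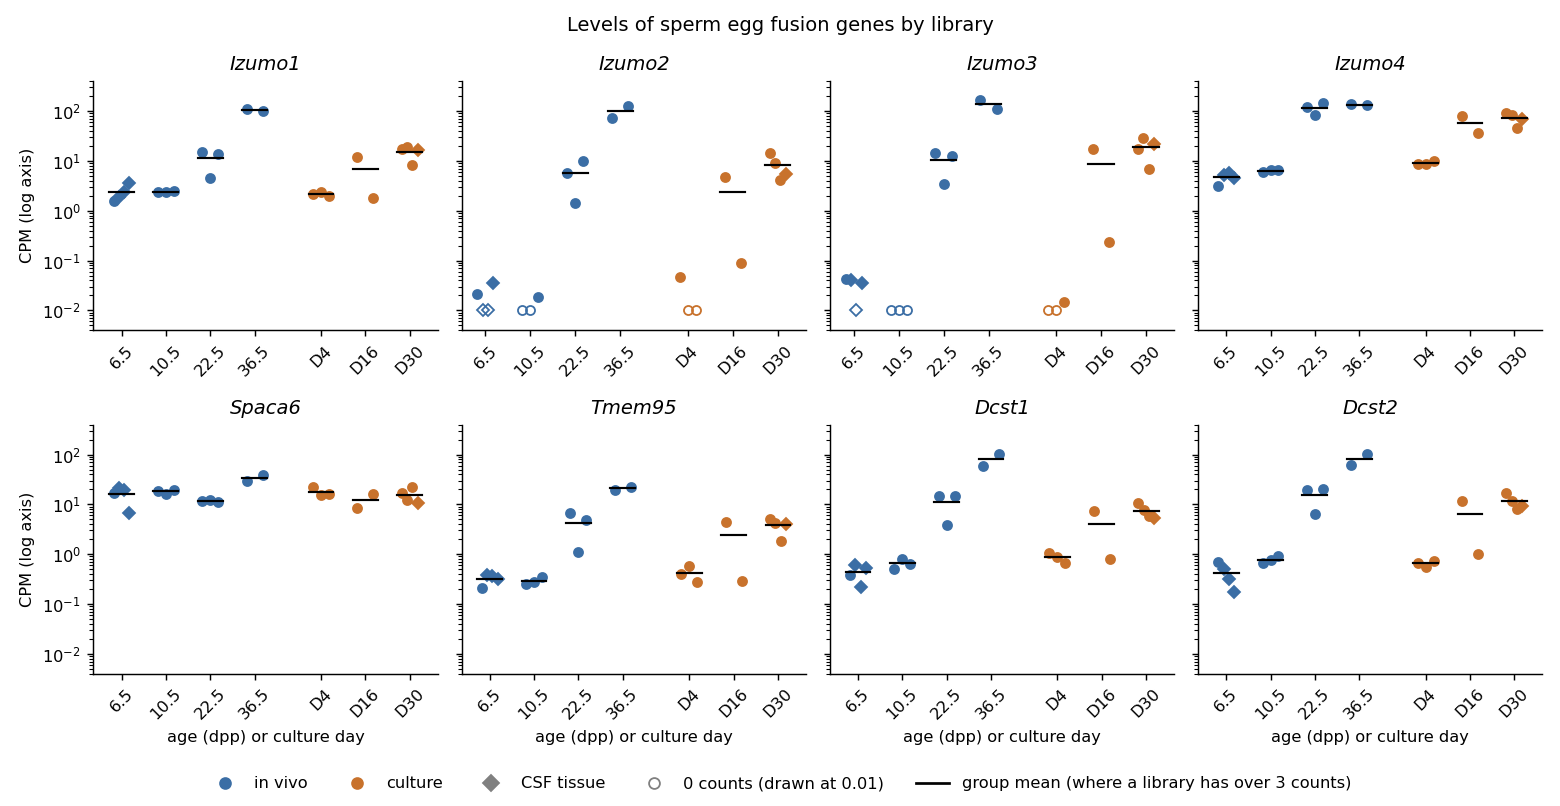
CPM of each gene in every library (log axis) by age in vivo (blue) and by culture day (orange); diamonds are CSF tissue, open symbols are libraries with 0 counts, drawn at 0.01, and black bars are means of groups in which a library has over 3 counts. All genes but Spaca6 climb from 10.5 to 22.5 dpp, 8 of 8 have their highest mean at 36.5 dpp, and the orange points of D30 lie under those of 36.5 dpp in every panel.

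IZUMO1, the sperm ligand for the egg receptor, had its transcript raised in both steps in vivo. Izumo1 was read at 2.33, 2.39 and 2.49 CPM at 10.5 dpp, at 15.3, 4.48 and 13.9 CPM at 22.5 dpp and at 108 and 97.9 CPM at 36.5 dpp. The libraries of these ages did not overlap, and replicate 2 was the low one at 22.5 dpp. In edgeR the log2 fold change was 2.55 (SE 0.57, adjusted p = 0.00089) from 10.5 to 22.5 dpp and 3.67 (SE 0.61, adjusted p = 0.000137) from 22.5 to 36.5 dpp.

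The other proteins without which sperm do not fuse fell into separate patterns. Tmem95 was read at 6.79, 1.1 and 4.93 CPM at 22.5 dpp and at 19.8 and 22.5 CPM at 36.5 dpp, a rise of 4.20 (log2, SE 0.80, adjusted p = 0.000206) and then of 2.77 (SE 0.74, adjusted p = 0.00488). Dcst1 had 14.6, 3.82 and 14.5 CPM at 22.5 dpp and 58.4 and 103 CPM at 36.5 dpp, and Dcst2 had 19.3, 6.36 and 20.1 CPM and then 60.7 and 103 CPM. The pair rose side by side. Dcst1 gained 4.41 (SE 0.70, adjusted p = 3.46e-05) and 3.35 (SE 0.67, adjusted p = 0.00057) in the steps, and Dcst2 gained 4.63 (SE 0.71, adjusted p = 2.47e-05) and 2.90 (SE 0.67, adjusted p = 0.00176). Per kb of transcript, Dcst2 was 1.02 to 1.74 times Dcst1 in the 11 libraries of 22.5 dpp, 36.5 dpp, D16 and D30, with the lowest ratios, 1.02 and 1.07, in the 36.5 dpp libraries. Spaca6 kept to another course. It was read at 11.7, 12.1 and 11 CPM at 22.5 dpp, with a log2 change from 10.5 dpp of -0.36 (SE 0.33, adjusted p = 0.361), and at 29.8 and 38.6 CPM at 36.5 dpp, a rise of 2.07 (SE 0.37, adjusted p = 0.00023) in the later step alone.

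The Izumo relatives differed in their timing. Izumo2 went from 0, 0 and 1 counts at 10.5 dpp to 217, 64 and 321 counts at 22.5 dpp (5.73, 1.40 and 10.1 CPM) and to 72.1 and 124 CPM at 36.5 dpp. Izumo3 went from 0 counts to 14.5, 3.47 and 12.7 CPM and then to 169 and 108 CPM, so its lowest 22.5 dpp library was at least 41.5-fold higher than the floor of 3 counts in the shallowest 10.5 dpp library. For both genes the earlier step passed the test, and no fitted fold change is given against a group at the floor. In the later step Izumo2 rose by 4.57 (log2, SE 0.94, adjusted p = 0.000714) and Izumo3 by 4.22 (SE 0.99, adjusted p = 0.00238), the highest values of the 8. Izumo4, whose product lacks the membrane anchor of the others, overlapped in CPM between 22.5 and 36.5 dpp. It was read at 120, 82.7 and 146 CPM at 22.5 dpp and at 136 and 131 CPM at 36.5 dpp. In edgeR it gained 4.51 (SE 0.36, adjusted p = 1.21e-08) in the earlier step. The later step gave a log2 difference of 0.69 (SE 0.34, adjusted p = 0.101 by edgeR). That value does not show an unchanged level, and 2 of 9 other settings called Izumo4 higher. Izumo4 was 57.7% to 71.7% of the summed CPM of the 8 genes at 22.5 dpp and 18% to 20.8% at 36.5 dpp.

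In all, 7 of the 8 genes rose from 10.5 to 22.5 dpp, all but Spaca6, where 33.6% of all genes tested were called higher. From 22.5 to 36.5 dpp 7 were called higher, all but Izumo4, against 23.3% of all genes. The median of the 8 log2 changes in the later step was 3.13, and that of all genes tested -0.13. With scaling to library size alone these medians were 2.65 and -0.63, with each member's direction as before. Izumo4 passed the test in the later step with RLE factors (0.88, adjusted p = 0.0457) and with DESeq2 (0.88, adjusted p = 0.0446). The round spermatid markers (Acrv1, Spaca1, Spaca3, Zpbp, Sun5, Catsper3) moved with these changes, 6 of 6 called higher in each step, from a summed 7.62 to 8.33 CPM at 10.5 dpp to 163 to 311 CPM at 22.5 dpp and 901 to 1043 CPM at 36.5 dpp, and none of them was at 0 from 22.5 dpp on. The part of the number of spermatids in the members' rise was not tested.

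In culture, most of these transcripts were still scarce at D4 and Spaca6 was not. Izumo2 had 2, 0 and 0 counts and Izumo3 had 0, 0 and 1. Izumo1 was at 2.21, 2.37 and 1.98 CPM, Tmem95 at 0.395, 0.576 and 0.275 CPM, and Spaca6 at 22.1, 15.3 and 16.5 CPM. Izumo4, at 8.80, 8.54 and 10.0 CPM, was the 1 member of 8 whose D4 libraries were all higher than those of 10.5 dpp (5.88 to 6.62 CPM), which held for 17.3% of all genes tested. No member passed edgeR's test between D4 and 10.5 dpp, where 8.1% of all genes did in either direction, none had an unadjusted p under 0.05 and DESeq2 called 0. A fit of only the groups compared called 1 member. The lack of a call in the main fit does not show equal levels.

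At D16 the members were present but the replicates lay far apart. Replicate 1 held 11.8 CPM of Izumo1, 4.68 of Izumo2, 17.4 of Izumo3, 4.53 of Tmem95, 7.39 of Dcst1 and 11.8 of Dcst2, and replicate 2 held 1.77, 0.0874, 0.240, 0.284, 0.787 and 1.01 CPM of the same genes in the same order. Replicate 1 was thus 6.68 (Izumo1) to 72.6 (Izumo3) times replicate 2. Izumo4 differed less, at 79.6 and 36.8 CPM, and Spaca6 was the one gene higher in replicate 2, at 8.27 and 15.9 CPM. Against D4, edgeR called 7 of 8 members higher, all but Spaca6, where 18.4% of all genes were called higher. Izumo4 rose by 2.73 (log2, SE 0.35, adjusted p = 1.05e-05), Dcst2 by 3.35 (SE 0.71, adjusted p = 0.00181), Tmem95 by 2.61 (SE 0.80, adjusted p = 0.022), Dcst1 by 2.31 (SE 0.69, adjusted p = 0.0194) and Izumo1 by 1.70 (SE 0.60, adjusted p = 0.0481). Without D16 replicate 1 the count was 1, Izumo4 (the lone library being assumed to vary like the others), and the values of Izumo1, Tmem95 and Dcst1 were then below 0. Without D4 replicate 3 it was 4. The call of Izumo1 was near the threshold and held in 4 of the 21 fits that left out 1 library and in 4 of 9 other settings. The summed spermatid markers moved with this split, at 212 and 56.6 CPM for round and 145 and 9.37 CPM for elongating spermatids (Tnp1, Tnp2, Prm1, Prm2, Odf1, Akap4, Gapdhs) in replicates 1 and 2, and spermatocyte markers at 2434 and 1403 CPM. Their part in the difference between replicates was not tested.

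At D30 all 8 transcripts were found in every library. Izumo1 was read at 16.9, 18.9 and 8.24 CPM in fresh replicates 1 to 3 and 16.4 CPM in the CSF library, Izumo2 at 14.2, 8.97, 4.21 and 5.58 CPM, and Izumo3 at 17.5, 28.3, 6.75 and 22.3 CPM. Fresh replicate 3 was the lowest of the 4 libraries for 6 of the 8 genes. Izumo4 had 89.7, 82.7, 45.0 and 68.4 CPM, Tmem95 had 4.97, 4.31, 1.86 and 4.09 CPM, Dcst1 had 10.7, 7.80, 5.87 and 5.35 CPM and Dcst2 had 16.6, 11.8, 8.19 and 9.07 CPM. Spaca6 ran the other way, with 16.7, 12.3, 22.8 and 10.4 CPM and its highest value in fresh replicate 3, as its highest values at 22.5 dpp and D16 were in the replicates 2 that were lowest for the other genes. The round spermatid markers summed to 102 CPM in fresh replicate 3 and to 234 to 287 CPM in the other three. The CSF library was within the range of the fresh ones for 6 genes and below it for Spaca6 and Dcst1, as a description from 1 library.

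No further rise was called in culture after D16. The fitted log2 changes from D16 to D30 ran from 0.33 (SE 0.33, Izumo4) to 1.83 (SE 0.93, Izumo2, adjusted p = 0.474), and 0 of the 8 members passed edgeR's test, where 1.79% of all genes passed in either direction. None had an unadjusted p under 0.05 and DESeq2 called 0. The count rested on D16 replicate 1, without which 6 members were called higher at D30.

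**Figure D2:**
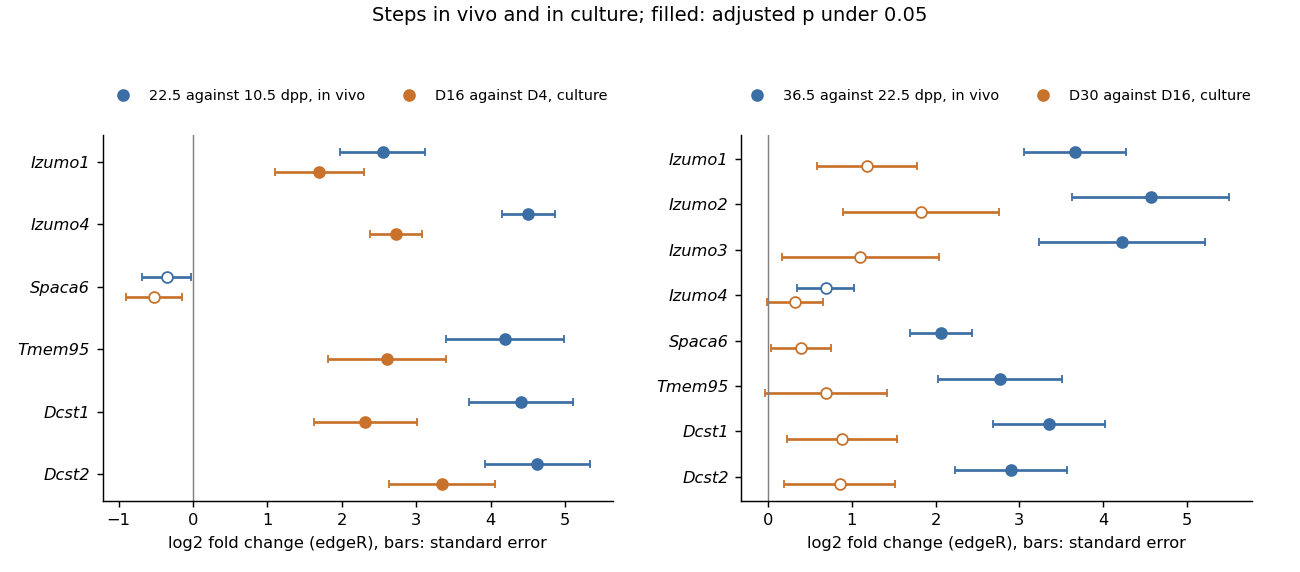
Log2 fold changes from edgeR with their standard errors for the earlier step (left) and the later step (right), in vivo (blue) and in culture (orange); filled points have an adjusted p under 0.05, and Izumo2 and Izumo3 are left out on the left because their starting groups were at the floor of detection. In the right panel the in vivo points lie between 0.69 and 4.57 and the culture points between 0.33 and 1.83.

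The explants stayed under the age-matched testis at the end of the culture. At D30 all 8 genes were lower than at 36.5 dpp, where 35% of all genes were called lower. For 8 of 8 genes all 4 culture libraries were below both in vivo ones, as for 25.2% of all genes tested. Izumo2 was lower by -4.19 (log2, SE 0.82, adjusted p = 0.000262), Dcst1 by -4.08 (SE 0.61, adjusted p = 2.27e-05), Izumo3 by -3.51 (SE 0.87, adjusted p = 0.0021), Dcst2 by -3.47 (SE 0.61, adjusted p = 0.000102), Izumo1 by -3.39 (SE 0.55, adjusted p = 4.33e-05) and Tmem95 by -3.10 (SE 0.68, adjusted p = 0.000638). Izumo4, already high at 22.5 dpp, and Spaca6, present at every age, were the least reduced, at -1.53 (SE 0.32, adjusted p = 0.000415) and -1.78 (SE 0.34, adjusted p = 0.000192). As mean CPM, D30 held 8.40% (Izumo2), 9.19% (Dcst1), 13.5% (Izumo3), 14.0% (Dcst2), 14.7% (Izumo1) and 18% (Tmem95) of the 36.5 dpp level, and 45.5% (Spaca6) and 53.5% (Izumo4) for the remaining pair. The median of the 8 log2 values was -3.43, and that of all genes -0.03. Scaling to library size alone put these medians at -2.80 and 0.60. At D30 the ranges of all 8 genes overlapped those of 22.5 dpp, an earlier age, as a description with no test. For Izumo4 the overlap was narrow, with 45.0 to 89.7 CPM at D30 and 82.7 to 146 CPM at 22.5 dpp. How many of all genes overlapped in this way was not counted, so the overlap does not place the explants at that age.

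Markers of other cells moved with this comparison. Round spermatid markers were lower at D30 in 6 of 6 genes, with log2 values from -4.36 to -1.79, a range that holds 6 of the 8 genes (all but Izumo4 and Spaca6), and elongating spermatid markers were lower in 7 of 7, from -5.03 to -3.97. Spermatocyte markers were lower in 4 of 7, from -2.95 to 0.08. The summed Sertoli cell markers were 686 to 1250 CPM at D30 against 78.8 to 90.5 CPM at 36.5 dpp, and the peritubular ones (Acta2, Bgn, Dcn) 867 to 1448 CPM against 109 to 224 CPM. Macrophage markers (Cd68, Adgre1, Lyz2) were higher in 3 of 3 (288 to 665 against 48.7 to 98.5 CPM) and spermatogonial ones in 3 of 5, whereas Leydig cell markers were lower in 4 of 4 (217 to 449 against 1434 to 1820 CPM). The part of the cell makeup in the members' difference was not tested.

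**Figure D3:**
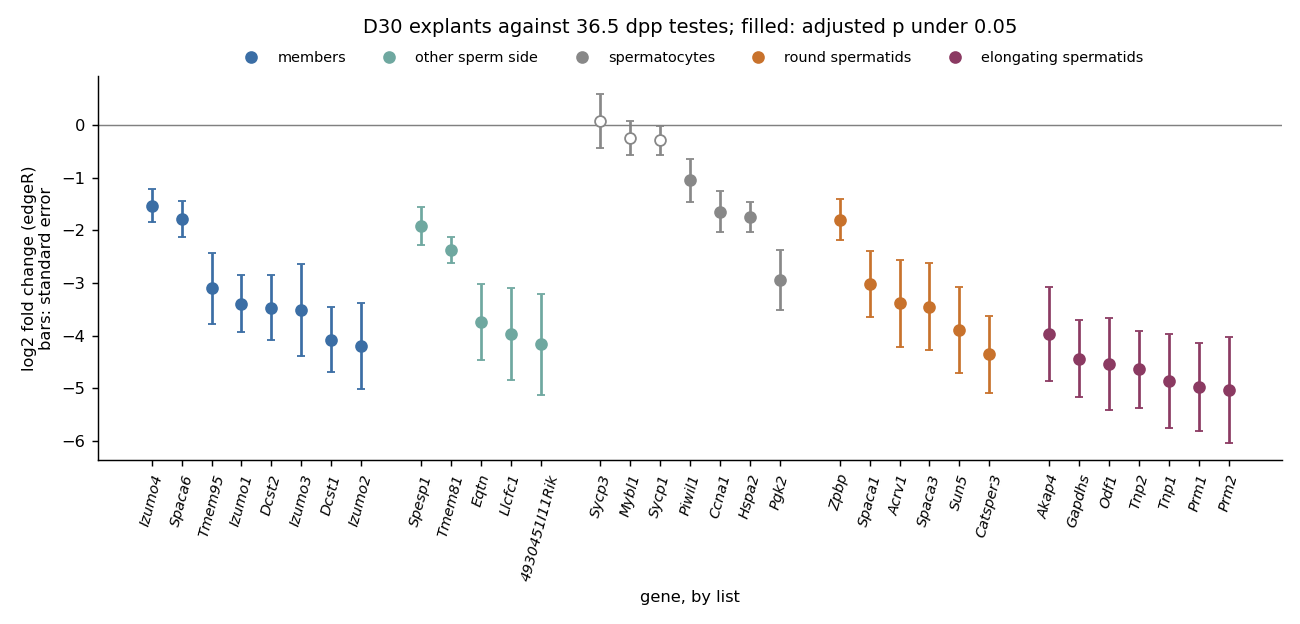
Log2 fold change of D30 explants against 36.5 dpp testes (edgeR, bars are standard errors) for the 8 genes, the other sperm side fusion genes tested and the spermatocyte, round and elongating spermatid markers; filled points have an adjusted p under 0.05. Members lie between -4.19 and -1.53, round spermatid markers between -4.36 and -1.79 and elongating spermatid markers between -5.03 and -3.97.

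At D16 only Izumo4 was called lower than at 22.5 dpp, a share of the members close to that of all genes. Its libraries, 79.6 and 36.8 CPM, were under the 82.7 to 146 CPM of 22.5 dpp, a log2 difference of -1.16 (SE 0.36, adjusted p = 0.0261), and 1 of 8 members was thus called lower, where 11.8% of all genes were. The fitted values of the other 7 ran from -1.61 (Dcst1, SE 0.70, adjusted p = 0.0959) to -0.10 (Spaca6, SE 0.37, adjusted p = 0.858), and their ranges overlapped between D16 and 22.5 dpp. This count moved with single libraries more than any other. Without D16 replicate 1 it was 7, without D16 replicate 2 it was 0, and without both low replicates 2 it was 0 with Izumo4 at -0.93 (adjusted p = 0.135). Leaving out 22.5 dpp replicate 1 or 3 gave 0, and leaving out its replicate 2 gave 2. Markers of other cells differed here too. Spermatocyte markers were lower at D16 in 3 of 7 genes (1403 to 2434 against 3466 to 4258 CPM summed) and Leydig cell markers (Cyp11a1, Cyp17a1, Hsd3b1, Insl3) in 4 of 4 (178 to 186 against 778 to 839 CPM), while Sertoli cell markers were higher in 4 of 4 (702 to 1064 against 214 to 384 CPM). The 6 round spermatid markers had log2 values from -1.57 to -0.995 with adjusted p of 0.0827 to 0.437 by edgeR. The part of these cells in the members' values was not tested.

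Whether the steps themselves differed between culture and testis was tested as a difference of the changes. For the earlier step (D16 minus D4 against 22.5 minus 10.5 dpp) Izumo4 gained less in culture, by -1.77 (log2, SE 0.48, adjusted p = 0.0274), and was the only member called, 1 of 8 against 4.36% of all genes with a lower gain. Without both low replicates it was -1.54 (adjusted p = 0.0648), and the count was 5 without D16 replicate 1 and 0 without D16 replicate 2 or without replicate 1 or 3 of 10.5 dpp, 22.5 dpp or D4. For the later step (D30 minus D16 against 36.5 minus 22.5 dpp) Izumo1 and Spaca6 gained less in culture, by -2.49 (SE 0.80, adjusted p = 0.0376) and -1.68 (SE 0.50, adjusted p = 0.0267), 2 of 8 against 8.63% of all genes. The other fitted values, none of them called, ran from -3.12 (Izumo3, SE 1.27, adjusted p = 0.0905) to -0.36 (Izumo4, SE 0.47, adjusted p = 0.61). For 5 of these 6 genes the direction turned without D16 replicate 1, to 2.02 for Izumo2, 2.11 for Izumo3, 0.34 for Izumo4, 1.03 for Tmem95 and 0.67 for Dcst2. Without both low replicates 6 members were called, with Izumo1 among them and Spaca6 not (-1.12, adjusted p = 0.187). The count was 0 without 22.5 dpp replicate 2 or 36.5 dpp replicate 2 and 6 without D16 replicate 2. It was 1 without D16 replicate 1, 36.5 dpp replicate 1, D30 fresh replicate 3 or the D30 CSF library.

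Per kb of the principal transcript the genes kept no common level. At 36.5 dpp Izumo2 was highest with 155 ± 58.1 CPM per kb (SD, n = 2), before Izumo4 with 112 ± 2.76, Izumo3 with 111 ± 34.1 and Izumo1 with 68.8 ± 4.61. Tmem95 with 39.8 ± 3.66, Dcst2 with 35.8 ± 13.0, Dcst1 with 34.5 ± 13.5 and Spaca6 with 31.8 ± 5.81 followed. Izumo2, Izumo4 and Izumo3 lay within the SD of Izumo2 of one another, and the last 4 within that of Dcst1. At 10.5 dpp the order was led by Spaca6 with 17.0 ± 1.66 CPM per kb (n = 3), Izumo4 with 5.31 ± 0.34 and Izumo1 with 1.61 ± 0.05. The gene with the lowest mean per kb at 36.5 dpp thus had the highest one at 10.5 dpp. The transcript length used for Spaca6, 1073 bases, was the principal one of GENCODE, and its exons in all transcripts together cover 7067 bases, so that its level per kb depends on the transcript read.

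Across the 21 libraries, Izumo1, Izumo2, Izumo3, Tmem95, Dcst1 and Dcst2 ran closely together. Pearson's r of log2 CPM (prior count of 2) was 0.94 to 0.99 for the 15 pairs of these genes, 0.86 to 0.95 for Izumo4 with them and 0.29 to 0.47 for Spaca6 with them. These values describe libraries that differ in depth and in age, with summed round spermatid markers from 6.49 to 1043 CPM over them, and are given with no test. Among 15766 other genes with a mean of at least 1 CPM, the closest course to that of Izumo3 included Spam1 (r = 0.9962), and that of Izumo2 was followed by Bcl2l14 (r = 0.9973), BC048671 and Ccdc70. Dcst2 was matched by Foxj1 (r = 0.9942), Fam209 and Ttll8. For Izumo1 the closest were 1700052I22Rik, 1700003F12Rik and Try5 (0.9905 to 0.991), for Dcst1 1700014D04Rik, Tmem262 and 1700093K21Rik (0.9875 to 0.9901), and for Tmem95 BB019430, Olfr112 and 4930405A10Rik (0.9887 to 0.99). The closest to Spaca6 were Inpp4a (r = 0.9518), Nbr1 and Gm26628. The other genes nearest Izumo3 were 4932411N23Rik and Fam47c.

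Set against the summed round spermatid markers of the same library, the members did not keep a constant share. Izumo1 stood at -4.67 on average (log2 of its CPM over the sum, range -5.19 to -4.33) at 22.5 dpp, at -3.24 (-3.41 to -3.07) at 36.5 dpp and at -3.81 (-3.93 to -3.64) at D30. The D30 libraries were above all of 22.5 dpp and below both of 36.5 dpp. The D30 libraries also lay below the 36.5 dpp ones for Izumo2 (-5.39 to -4.09 against -3.64 to -3.07), Izumo3 (-3.92 to -3.34 against -3.26 to -2.42), Dcst1 (-5.45 to -4.13 against -3.95 to -3.34) and Tmem95 (-6.06 to -5.60 against -5.53 to -5.51). Dcst2 overlapped, at -4.69 to -3.65 and -3.89 to -3.34. Izumo4 and Spaca6 ran the opposite way. Izumo4 had a higher share at 22.5 dpp (-1.36 to -0.98) and at D30 (-1.80 to -1.19) than at 36.5 dpp (-2.99 to -2.73), and Spaca6 was at -4.55 to -2.17 at D30 and -4.92 to -4.76 at 36.5 dpp. Over summed spermatocyte markers Izumo4 was at -5.39 to -4.87 at 22.5 dpp, -4.81 to -4.71 at 36.5 dpp and -4.76 to -4.35 at D30. Over the summed elongating spermatid markers the order was another. The D30 libraries lay above both 36.5 dpp ones for Izumo1 (-7.08 to -5.46 against -7.97 to -7.77). So they did for Izumo3 (-7.03 to -5.02 against -7.62 to -7.32) and Tmem95 (-8.89 to -7.47 against -10.4 to -9.89). They were also above them for Dcst2, Izumo4 and Spaca6, while Izumo2 and Dcst1 overlapped. Where D30 stood thus depended on the marker list. With 2 to 4 libraries a group these shares were not tested. The mix of markers in the round spermatid sum differed as well, since Zpbp made up 61.6% to 81.9% of it at 22.5 dpp, 62.5% to 93.5% at D16 and 46.9% to 58.7% at D30, against 22.5% to 31.8% at 36.5 dpp.

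**Figure D4:**
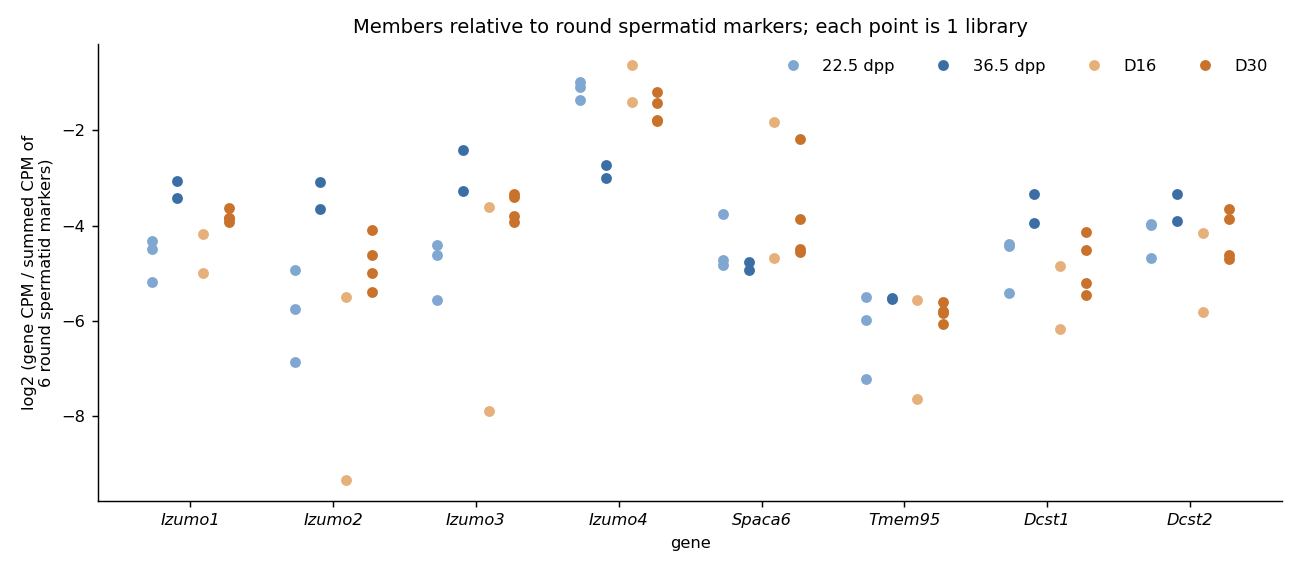
Log2 of each gene's CPM over the summed CPM of 6 round spermatid markers, 1 point per library, for 22.5 dpp, 36.5 dpp, D16 and D30. Izumo1 rises from 22.5 dpp (mean -4.67) to 36.5 dpp (mean -3.24) with D30 between them (mean -3.81), Izumo4 falls between the same ages, and D30 of Izumo4 (mean -1.55) lies above its 36.5 dpp level (mean -2.86).

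Other genes of gamete fusion were followed from a short list. On the sperm side 6 genes were listed, 4930451I11Rik (Fimp), Llcfc1, Tmem81, Eqtn, Spesp1 and Crisp1, and 5 could be tested, since Crisp1, an epididymal gene, had at most 3 counts in any library. All 5 were called higher from 10.5 to 22.5 dpp and again to 36.5 dpp, and all 5 lower at D30 than at 36.5 dpp. Of all genes tested, 33.6%, 23.3% and 35% were called in these directions. Tmem81 rose least in the earlier step, by 0.70 (log2, SE 0.24, adjusted p = 0.019 by edgeR), and its libraries of those ages overlapped in CPM. Llcfc1, needed for fusion, went from a mean of 14.2 ± 9.20 CPM at 22.5 dpp to 293 ± 57.4 CPM at 36.5 dpp and was at 28.6 ± 12.8 CPM at D30. Spesp1, an equatorial segment gene, was early like Izumo4, at 249 ± 59.0 CPM at 22.5 dpp and 355 ± 40.2 CPM at 36.5 dpp, and gained less in culture in the earlier step, by -2.90 (SE 0.57, adjusted p = 0.00536 by edgeR). Tmem81, which like Spaca6 was present at every age, had 6.59 ± 0.44 CPM at 10.5 dpp, 8.59 ± 2.00 at 22.5 dpp, 32.3 ± 5.72 at 36.5 dpp and 9.67 ± 1.36 at D30, and its gain in the later step was lower in culture by -1.96 (SE 0.36, adjusted p = 0.00156). Eqtn, another acrosomal gene, was lower at D30 than at 36.5 dpp by -3.74 (SE 0.72, adjusted p = 0.000235).

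On the egg side, Izumo1r was near the floor in these testes. It had 0 counts in both 36.5 dpp libraries and at most 20 counts in any of the 21 libraries. Cd9 and Cd81, tetraspanins of the egg membrane that many somatic cells carry too, were higher at D30 than at 36.5 dpp, by 2.15 (SE 0.71, adjusted p = 0.0129) and 1.72 (SE 0.22, adjusted p = 3.79e-06), opposite to the 8 sperm genes. Among the cell fusion genes of other tissues, Dcstamp and Ocstamp, relatives of the Dcst pair known from osteoclasts and macrophages, did not exceed 0.779 and 0.683 CPM in any library, and Mymk and Mymx, the muscle fusogens, stayed at or below 1.29 CPM.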

How the data were processed

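RNA of testes and explants was sequenced from poly(A) libraries, single end, and per the labels and the study's methods reads were demultiplexed with bcl2fastq 2.17.1.14, aligned to mouse GRCm38 with STAR 2.7.3a and counted per gene with HTSeq 0.12.4. The authors deposited raw counts for 27466 NCBI gene identifiers in 23 columns, of which 27373 matched the RefSeq GRCm38.p6 gene table. The strand setting of the counting is not given in the sources used here. The 16 genes of at least 200 exon bases with at least 98% of them under exons of the other strand had no count in any library.

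Everything else was computed here. CPM were taken over the library total. Per kb values used the principal GENCODE M21 transcript. Identical columns were merged, and 21 libraries in 7 groups entered 1 edgeR 4.0.16 fit (TMM, filterByExpr, quasi-likelihood test, R 4.3.3), with Benjamini-Hochberg adjustment over the 19255 genes tested and a threshold of 0.05. The script was tested on simulated data. Totals of 28351546 to 69029328 counts set the counting precision. Alternatives were DESeq2 1.42.0, RLE factors, library size only, other filters and fits, a stricter threshold (log2 fold change of 2, adjusted p of 0.001), a replicate block and leaving out libraries. The members, marker lists and lists of other fusion genes were chosen with earlier results of these data known. Genes with the most similar course were the 3 with the highest Pearson's r for each member, and those of Izumo4 are not reported here.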

Additional observations from a re-analysis of the deposited data

Results flagged for a closer look

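Some results stood out because the change in culture differed from that in vivo by a test of the difference itself. Izumo4 gained less between D4 and D16 than between 10.5 and 22.5 dpp, by -1.77 on the log2 scale. Izumo1 and Spaca6 gained less between D16 and D30 than between 22.5 and 36.5 dpp, by -2.49 and -1.68. Of the 21 fits that left out 1 library, the call held in 14 (Izumo4), 15 (Izumo1) and 18 (Spaca6). Over those fits the difference ran from -2.46 to -1.30 (Izumo4), -3.29 to -0.50 (Izumo1) and -2.05 to -1.15 (Spaca6). Of the 9 other settings, the call held in 7 (Izumo4), 6 (Izumo1) and 6 (Spaca6). Izumo2 and Izumo3 had larger fitted differences of the later steps, -2.74 and -3.12, that were not called.

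Others came from the library labelled 6.5 dpp fresh replicate 1, which entered no comparison and whose levels lay above those of the 4 other libraries of that age. It held 10.5 CPM of Izumo1 (1.54 to 3.60 CPM in the others), 4.78 CPM of Izumo2 (0 to 0.0353 CPM) and 9.06 CPM of Izumo3 (0 to 0.0418 CPM). It also held 74.9 CPM of Izumo4 (3.13 to 5.62 CPM), 4.27 CPM of Tmem95 (0.209 to 0.374 CPM), 9.66 CPM of Dcst1 (0.219 to 0.603 CPM) and 15.2 CPM of Dcst2 (0.176 to 0.71 CPM). Spaca6, at 17.7 CPM, was within the 6.74 to 21.6 CPM of the others. The library was set apart for its spermatid markers, so its high values of genes that rise with those markers are no independent result. The cause was not tested. Of the 14 pairs of a gene and a group of 4 or more libraries in which a single distant library was looked for, chance giving about 1 in 20, 0 held one, with Izumo2 and Izumo3 at 6.5 dpp left out for their low counts.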

How the results depend on the processing

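In vivo and at the end of the culture the counts were steady, with 7 members called from 10.5 to 22.5 dpp, 7 from 22.5 to 36.5 dpp and 8 lower at D30 than at 36.5 dpp whichever 1 library was left out. In the 9 other settings, the calls of Izumo3 and Izumo4 at D30 against 36.5 dpp held in 8 each. Those of the other members held in all 9. With 1 library left out the count was 1 to 7 for D16 against D4, 0 to 6 for D30 against D16, 0 to 7 for D16 against 22.5 dpp, 0 to 5 for the difference of the earlier steps and 0 to 6 for that of the later steps, and 0 for 10.5 against 6.5 dpp and D4 against 10.5 dpp. The stricter threshold gave 4 (36.5 against 22.5 dpp), 2 (D16 against D4), 0 (D16 against 22.5 dpp), 5 (D30 against 36.5 dpp), 0 (earlier steps) and 0 (later steps). With 6.5 dpp fresh replicate 1 in its group these were 3 (36.5 against 22.5 dpp), 0 (D16 against D4), 0 (D16 against 22.5 dpp), 0 (earlier steps) and 1 (later steps). A fit of only the groups compared gave 3 (D16 against D4), 1 (D4 against 10.5 dpp), 0 (D16 against 22.5 dpp) and 1 (later steps). DESeq2 gave 2 for D16 against 22.5 dpp. For the later steps the count was 1 with library size only, 1 with fresh tissue only and 1 with the replicate block. Leaving out replicates 2 of both 22.5 dpp and D16, a choice made after seeing the data, gave 0 (D16 against 22.5 dpp), 0 (earlier steps) and 6 (later steps). Whether the replicate numbers pair the libraries was not settled. Deviations of same-numbered libraries correlated at r = -0.58 to 0.66 (median 0.02, 15 of 52 pairs over 0.1). The values for 22.5 dpp with D16 were 0.66 at replicate 2 and 0.52 at replicate 1. Libraries of unlike number were not correlated for comparison, and deviations within small groups depend on one another. The block changed no other count by over 1.5 times.

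Of 1344 member values with 1 library left out, 15 changed sign, and of 575 under other settings 7, none of them called in the alternative. Of these 22 sign changes, 3 were of values called in the main setting, those of Izumo1, Tmem95 and Dcst1 for D16 against D4. With 1 library left out, D16 against D4 ran from -0.28 to 2.51 (Izumo1), -0.49 to 3.54 (Tmem95) and -0.094 to 3.18 (Dcst1), D30 against D16 from -0.14 to 1.02 (Izumo4), -0.24 to 3.79 (Tmem95) and -0.039 to 3.56 (Dcst2), and D16 against 22.5 dpp from -5.61 to 0.60 (Izumo3) and -0.62 to 0.28 (Spaca6). The difference of the earlier steps ran from -6.91 to 0.22 (Izumo2) and -0.68 to 0.21 (Spaca6), and that of the later steps from -3.72 to 2.02 (Izumo2), -4.10 to 2.11 (Izumo3), -0.82 to 0.34 (Izumo4), -3.0 to 1.03 (Tmem95) and -2.93 to 0.67 (Dcst2). Without both replicates 2, D30 against D16 was -0.14 (Izumo4), -0.24 (Tmem95) and -0.039 (Dcst2), and D16 against 22.5 dpp was 0.16 (Izumo3). With library size only, Spaca6 was 0.061 for D16 against 22.5 dpp and 0.084 for the earlier steps, and Izumo4 was 0.10 for the later steps. The causes were not tested. On TMM-adjusted library sizes all 8 genes kept their highest mean at 36.5 dpp, and 12 of 56 group means moved by over 1 SD, by a factor of at most 1.54. Depth limits Izumo2 and Izumo3 before 22.5 dpp, where 3 counts are the floor.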
